A study of Homo sapiens with 6 samples.

Results

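The nuclear factor kappa B (NF-kB) system was examined here through 10 genes, the 5 subunits NFKB1, NFKB2, REL, RELA and RELB and the inhibitors NFKBIA, NFKBIB, NFKBIE, NFKBIZ and TNFAIP3. They were chosen by gene symbol, with no measured value in the rule but with earlier results of these data known. Each symbol matched 1 of the 62703 rows of the count table. All 10 passed the filter on low counts, as did 15693 genes in all. Messenger RNA had been sequenced from HGC-27 cells, a widely used line derived from a human gastric cancer, kept in 10% fetal bovine serum. One group of 3 libraries, here shControl, carried a control short hairpin RNA (shRNA) and is labelled WT in genotype, and the other group of 3, here shGXYLT2, came from cells that stably express an shRNA against GXYLT2, an enzyme that adds xylose to sugars on Notch receptors. Neither the shRNA sequence nor whether a group is 1 clone or several is given in the sources used here.

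The subunits share a Rel homology domain, pair into dimers and bind kB sites in DNA. In resting cells the dimers are held in the cytoplasm by inhibitor of kappa B (IkB) proteins until the IkB kinase (IKK) complex marks the inhibitor for destruction, and NFKBIA, which encodes the inhibitor IkB-alpha, is itself a classic NF-kB target gene that closes a feedback loop. In gastric epithelium the pathway is best known for its part in inflammation, including the response to Helicobacter pylori. RNA levels do not show where the proteins are or whether they are active.

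Library totals ran from 17291100 to 24898400 estimated counts. The knockdown was present in every library labelled for it: GXYLT2 stood at 20.7, 22.8 and 20.2 CPM (counts scaled to a common library size with TMM factors) in shControl replicates 1 to 3 and at 5.27, 6.27 and 5.34 CPM in shGXYLT2. The means were 21.3 ± 1.40 and 5.63 ± 0.556 CPM (SD, n = 3 each), and an exact permutation test, two-sided, gave p = 0.1, its lower limit with 3 libraries against 3. Of 12 gastric and epithelial markers 3 (CDH1, KRT8 and MUC6) reached 1 CPM and 5 (TFF1, TFF2, MUC5AC, GKN1 and PGC) had 0 counts, with a summed level of 6.495 to 7.38 CPM in shControl and 7.14 to 9.94 CPM in shGXYLT2. Of these markers MUC6 rose, from 2.05 to 4.22 CPM, and its part in the results was not tested. By these markers the RNA carries few marks of gastric epithelium. The 6 mesenchymal markers summed to 5033 to 5341 CPM in shControl and to 4665 to 5025 CPM in shGXYLT2. Of them 1 rose, FN1, from 38.7 to 78.7 CPM (edgeR adjusted p = 2.3e-09). Another, COL1A1, fell from 824 to 542 CPM (edgeR adjusted p = 2.0e-06), and CDH2 averaged only 0.0338 CPM in shControl and 0.166 CPM in shGXYLT2. The part of these changes in the results was not tested. The 12 leukocyte markers summed to 1.95 to 2.28 CPM in shControl and 1.62 to 2.36 CPM in shGXYLT2, with CD3E, MS4A1 and CD79A at 0 counts. Whether the replicates were grown separately is not in the labels, and the p-values therefore cover the spread among these libraries alone, which may be technical.

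Because NF-kB genes often regulate one another, the start regions of the members were searched for the kB consensus, a motif of 10 bases, on both strands. RefSeq windows (GRCh38.p14, 250 bases before to 50 after an annotated start) were given for 8 members with 14 starts. At least 1 match lay in 7 of these 8 genes (87.5%), against 1937 of 27305 genes with a RefSeq window (7.09%), 977 of the 11024 that were tested here (8.86%) and 2075 of 35116 single windows (5.91%). RELA was the member with windows and no match. A match describes letters only, and no binding was measured here. The stretches before the starts of the 2 members whose RNA differed between the groups are printed with the match in capitals. That of NFKBIA lies at chr14:35404750-35404999 on the minus strand, with the match beginning 81 bases before the start. That of NFKB1 lies at chr4:102501109-102501328 on the plus strand. For NFKB1 the 2 annotations differ: the printed stretch ends just before the GENCODE start at base 102501329, and the RefSeq start at base 102501359 lies 30 bases further on, so the match begins 19 bases before the former and 49 bases before the latter. Both matches lie upstream of the gene as annotated by GENCODE.
NFKBIA: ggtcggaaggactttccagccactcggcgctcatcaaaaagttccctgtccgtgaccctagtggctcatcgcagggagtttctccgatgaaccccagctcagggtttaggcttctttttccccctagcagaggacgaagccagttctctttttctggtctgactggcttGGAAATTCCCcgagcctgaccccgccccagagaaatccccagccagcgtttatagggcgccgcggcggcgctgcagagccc
NFKB1: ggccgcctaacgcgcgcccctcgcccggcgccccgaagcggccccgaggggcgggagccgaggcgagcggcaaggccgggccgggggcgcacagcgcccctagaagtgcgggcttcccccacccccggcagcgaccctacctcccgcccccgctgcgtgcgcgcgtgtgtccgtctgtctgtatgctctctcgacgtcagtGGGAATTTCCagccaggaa

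For the other members 30 bases around a match are shown, so that the matches can be compared with those of NFKBIA and NFKB1. In REL (chr2:60881518-60881547) and TNFAIP3 (chr6:137867188-137867217) the matches, 1 and 2 in number, fall in 5′ UTR exons of the GENCODE annotation. NFKB2 held 4 matches in all, of which the pair at its second start is shown (chr10:102394462-102394491 and chr10:102394490-102394519, 5′ UTR exon). The NFKBIB match lies in an intron (chr19:38899932-38899961). Of the 2 NFKBIZ matches the one upstream of the gene is shown (chr3:101827757-101827786). Matches that overlap are printed as 1 run of capitals.
REL: gtcagccgcGGGAAATTCCCctcccgccag
TNFAIP3: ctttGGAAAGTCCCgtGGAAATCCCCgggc
NFKB2, first of the pair: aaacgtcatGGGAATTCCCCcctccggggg
NFKB2, second of the pair: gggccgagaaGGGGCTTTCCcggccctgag
NFKBIB: ggcgtggtgGGGAATTTCCCgcagggcgga
NFKBIZ: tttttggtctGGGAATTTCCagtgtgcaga
Read on either strand, the GGGAATTTCC of NFKB1 recurs in NFKBIA, NFKBIB, NFKBIZ and REL, and it is not in the matches of NFKB2 or TNFAIP3. Members with a match included both genes that changed and genes that did not pass the test. Among all tested genes with a window, a match was present in 67 of 645 that rose (10.4%), 88 of 796 that fell (11.1%) and 822 of 9583 that did not pass (8.58%).

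**Figure D1:**
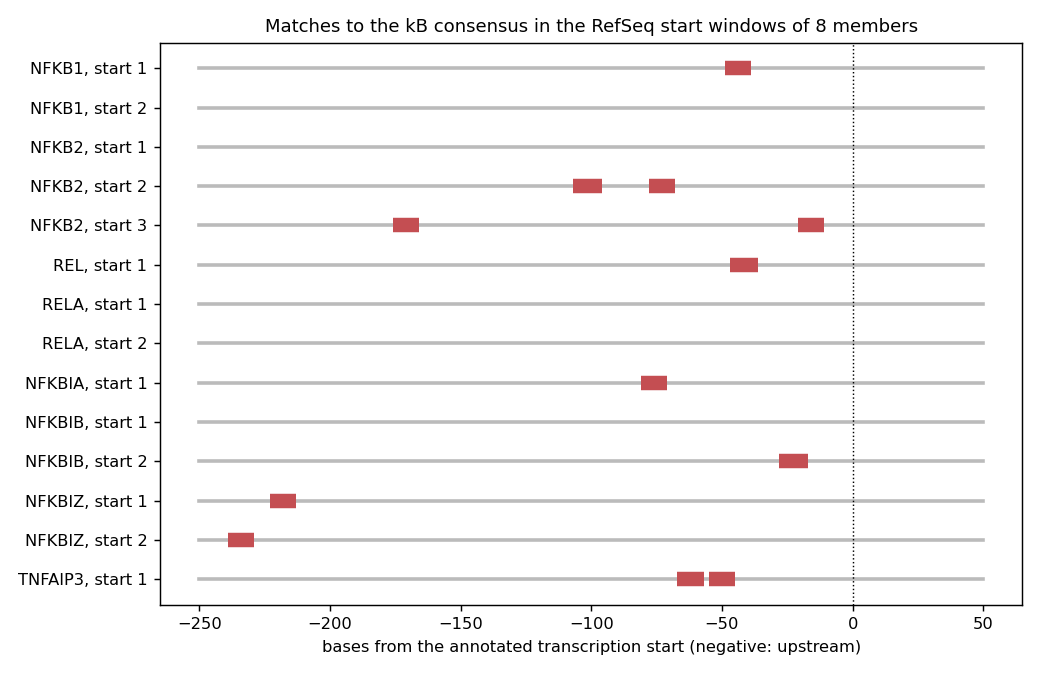
Position of matches to the kB consensus (red) in each RefSeq start window (grey) of the 8 members that have one; the x axis gives bases from the annotated start, and starts are numbered from the most upstream. Matches lie in 7 of the 8 genes, and RELA has none in either window.

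The comparison sets cells with the shRNA against GXYLT2 beside cells with the control shRNA. Effects of the lower GXYLT2 level cannot be told apart from other effects of the shRNA or from other differences between the cell populations. Among the members, NFKBIA rose 1.56-fold and NFKB1 fell 1.28-fold, and the other 8 did not pass the test. These 2 of 10 members compare with 12.2% of all tested genes past the threshold (quasi-likelihood test of edgeR, p adjusted by Benjamini-Hochberg over 15693 genes, threshold 0.05). In each direction, 1 of 10 members was called, against 5.31% of tested genes that rose and 6.84% that fell. The median log2 fold change of the members was -0.07, against -0.01 over all tested genes. Libraries of the groups did not overlap for 5 members, 2 higher and 3 lower in shGXYLT2, against 30.4% of tested genes. A lower RNA level per cell and fewer cells that express a gene cannot be told apart in these bulk libraries.

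**Figure D2:**
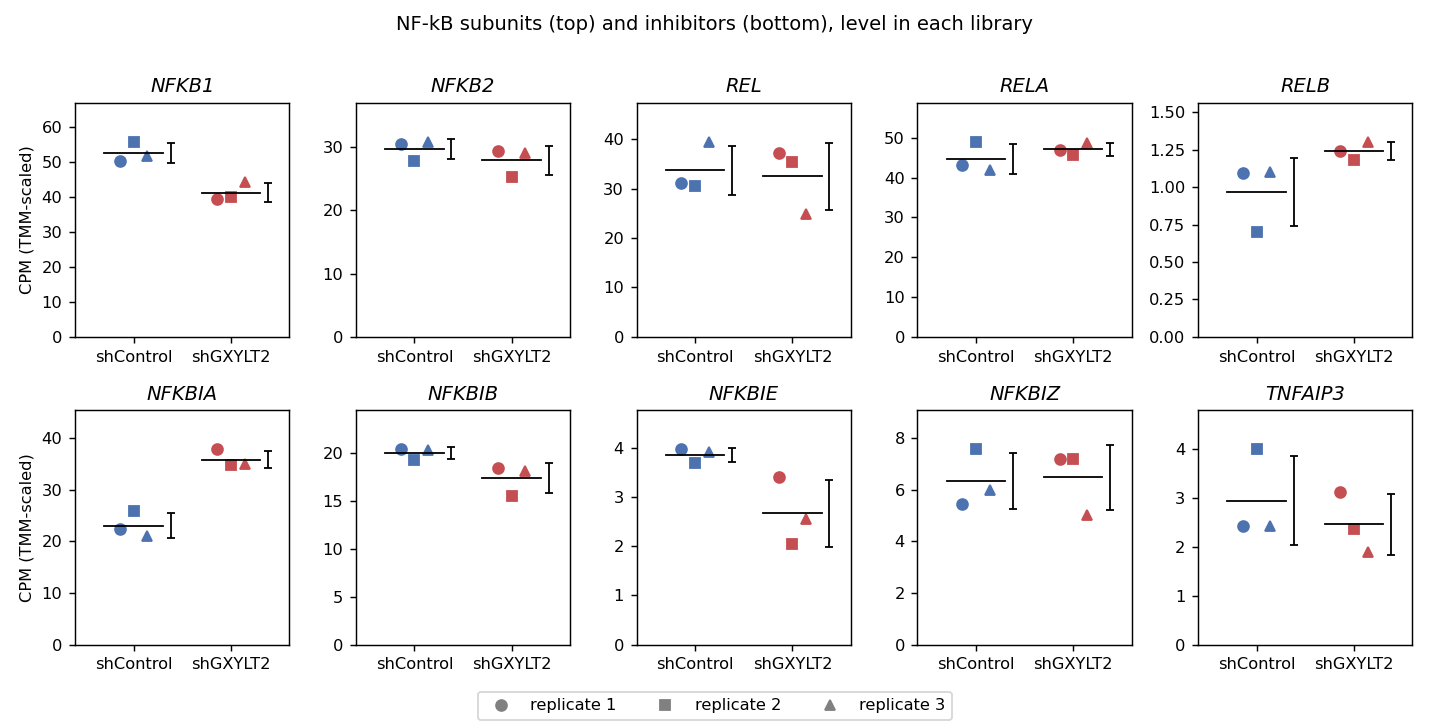
Level of each member in CPM (y axis, from 0, TMM-scaled) in the 3 shControl (blue) and 3 shGXYLT2 (red) libraries; lines are group means and bars ± SD, n = 3. All 3 shGXYLT2 libraries lie above all shControl libraries for NFKBIA (34.8 to 37.8 against 21.0 to 25.8 CPM) and below them for NFKB1 (39.3 to 44.2 against 50.2 to 55.7 CPM).

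Among the subunits, NFKB1 encodes p105, the precursor of p50, and lies on chromosome 4 from base 102501329 to 102617302 (GRCh38, plus strand). Its level was 50.2, 55.7 and 51.5 CPM in shControl replicates 1 to 3 and 39.3, 39.9 and 44.2 CPM in shGXYLT2 replicates 1 to 3. The highest shGXYLT2 library stayed below the lowest shControl library. The means were 52.5 ± 2.84 and 41.1 ± 2.71 CPM (SD, n = 3 each), which is a log2 fold change of -0.35 (SE 0.0727; edgeR adjusted p = 0.0032). Over the 14 alternatives tried, the adjusted p ran from 2.2e-04 to 0.0352, and the log2 fold change from -0.40 to -0.31.

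RELA encodes p65, the subunit that carries the main transactivation domain of the classical p50-p65 dimer. It stood at 43.2, 49.0 and 42.0 CPM in shControl and at 46.9, 45.6 and 48.8 CPM in shGXYLT2. The 2 groups overlapped, and shControl replicate 2 was the highest library of all. The log2 fold change was 0.08, with a 95% interval of -0.08 to 0.23 (edgeR adjusted p = 0.56), so a rise above 1.17-fold and a fall below 0.948 of the control level both lie outside it. With RELA near its control level and NFKB1 lower, the ratio of NFKB1 to RELA per kilobase was 0.705, 0.689 and 0.744 in shControl and 0.507, 0.530 and 0.549 in shGXYLT2, and the groups did not overlap.

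NFKB2, which encodes p100, the precursor of p52 in the non-canonical pathway, stood at 30.4, 27.8 and 30.8 CPM in shControl and at 29.4, 25.2 and 29.01 CPM in shGXYLT2. The groups overlapped (log2 fold change -0.09, 95% interval -0.27 to 0.08, edgeR adjusted p = 0.55). RELB, the usual partner of p52, was the scarcest member, with 12 to 31 counts per library. It was at 1.09, 0.703 and 1.10 CPM in shControl and at 1.24, 1.18 and 1.302 CPM in shGXYLT2. The 3 shGXYLT2 libraries were all above the controls, but the interval of the log2 fold change, -0.26 to 0.96, was wide at this depth (edgeR adjusted p = 0.51).

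REL, which encodes c-Rel, a subunit best known in lymphoid cells, varied more within the groups than between them. Its level was 31.1, 30.6 and 39.5 CPM in shControl and 37.2, 35.3 and 24.8 CPM in shGXYLT2, so the lowest and the next to highest libraries both belonged to shGXYLT2 and the highest was shControl replicate 3. The log2 fold change was -0.06 (95% interval -0.44 to 0.32, edgeR adjusted p = 0.87). Leaving out replicate 3 of shControl turned it to 0.08, and leaving out replicate 3 of shGXYLT2 to 0.10. REL counts are uncertain, because a noncoding gene (ENSG00000267520) on the same strand covers 5702 bases of REL exons, 43.3% of them. The mean of that gene was 31.3 ± 2.08 CPM in the controls and 31.3 ± 4.11 CPM in the knockdown (SD, n = 3 each), and the sum of both genes was 59.7 to 72.7 CPM in shControl and 51.6 to 70.2 CPM in shGXYLT2, which also overlap.

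Among the inhibitors, NFKBIA lies on chromosome 14 from base 35401511 to 35404749 (minus strand). Its level was 22.3, 25.8 and 21.0 CPM in shControl replicates 1 to 3 and 37.8, 34.8 and 34.9 CPM in shGXYLT2 replicates 1 to 3. The shGXYLT2 libraries were all higher, and the gap between the groups was wider than the range within either one. The means were 23.0 ± 2.46 and 35.8 ± 1.70 CPM (SD, n = 3 each), which is a log2 fold change of 0.64 (SE 0.0859; edgeR adjusted p = 4.5e-05) and a fold of 1.56 with a 95% interval of 1.38 to 1.77. It passed under all 14 alternatives, with an adjusted p of 6.1e-12 to 0.0018 and a log2 fold change of 0.58 to 0.73.

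NFKBIB and NFKBIE, which encode the related inhibitors IkB-beta and IkB-epsilon, had lower values in shGXYLT2 and did not pass the test. NFKBIB stood at 20.3, 19.2 and 20.3 CPM in shControl and at 18.4, 15.5 and 18.1 CPM in shGXYLT2, a log2 fold change of -0.20 (95% interval -0.40 to -0.01, unadjusted p = 0.0406, edgeR adjusted p = 0.17). NFKBIE stood at 3.97, 3.69 and 3.91 CPM in shControl and at 3.40, 2.04 and 2.56 CPM in shGXYLT2. Every shGXYLT2 library was below every shControl library for both genes. The NFKBIE log2 fold change was -0.53 (95% interval -0.94 to -0.13, unadjusted p = 0.0129, edgeR adjusted p = 0.082), from 50 to 89 counts per library. Without shGXYLT2 replicate 1, the shGXYLT2 library with the highest level, it was -0.75 and passed the test (edgeR adjusted p = 0.0308). NFKBIB shares 40 exonic bases with SIRT2 on the opposite strand, and the sources used here do not say if reads were counted by strand.

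NFKBIZ encodes the nuclear protein IkB-zeta, which acts on transcription together with p50, and TNFAIP3 encodes A20, a ubiquitin-editing enzyme that switches off signalling upstream of IKK. NFKBIZ was at 5.46, 7.56 and 5.98 CPM in shControl and at 7.19, 7.21 and 5.03 CPM in shGXYLT2. TNFAIP3 was at 2.41, 3.98 and 2.42 CPM in shControl and at 3.12, 2.36 and 1.89 CPM in shGXYLT2. Both genes overlapped between the groups, with shControl replicate 2 the highest library for each. The log2 fold changes were 0.04 (95% interval -0.30 to 0.38, edgeR adjusted p = 0.91) and -0.24 (95% interval -0.73 to 0.25, edgeR adjusted p = 0.58), and each took the opposite sign when 1 library was left out: NFKBIZ ran from -0.05 without shControl replicate 1 to 0.19 without shGXYLT2 replicate 3, and TNFAIP3 was 0.03 without shControl replicate 2. The SD of TNFAIP3 was 30.8% of its mean in shControl and 25.3% in shGXYLT2, against 5.40% and 6.58% for NFKB1.

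**Figure D3:**
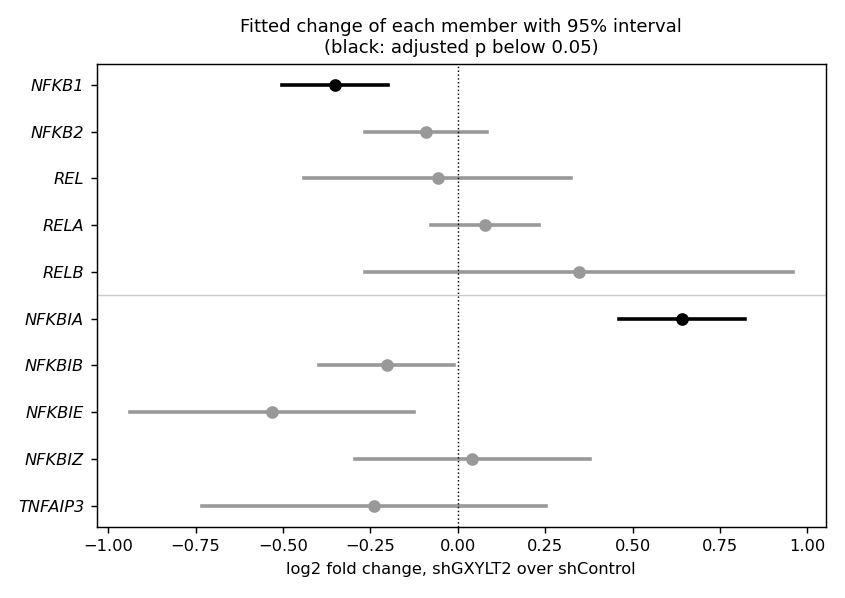
Log2 fold change of each member, shGXYLT2 over shControl (x axis), with its 95% interval from the edgeR fit over all genes; subunits are above the grey line and inhibitors below it. NFKB1 (-0.35) and NFKBIA (0.64) are the members past the adjusted threshold, and the intervals of NFKBIB and NFKBIE exclude 0 before adjustment.

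To compare levels between genes, CPM were divided by the gene length that the authors deposited. In shControl the order from the top was RELA (17.8 ± 1.49 CPM per kilobase), NFKBIB (16.7 ± 0.532), NFKBIA (14.8 ± 1.58), NFKB1 (12.6 ± 0.683), NFKB2 (9.29 ± 0.504), REL (3.0 ± 0.443), NFKBIZ (1.61 ± 0.278), NFKBIE (1.49 ± 0.0567), TNFAIP3 (0.648 ± 0.20) and RELB (0.427 ± 0.10; SD, n = 3 each). Libraries of RELA and NFKBIB, of NFKBIB and NFKBIA, and of NFKBIZ and NFKBIE overlapped, so these neighbours are not ordered beyond their spread. With the same deposited length NFKBIA came first in shGXYLT2, at 23.0 ± 1.09 CPM per kilobase, above RELA at 18.7 ± 0.648 and NFKBIB at 14.6 ± 1.33, with no overlap among these 3. NFKB1 and NFKB2 came next, at 9.90 ± 0.652 and 8.73 ± 0.719 CPM per kilobase.

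The make-up of each set differed accordingly. Among the subunits NFKB1 took 29.3% ± 0.664 of the summed length-scaled level in shControl and 24.3% ± 1.23 in shGXYLT2, while RELA took 41.2% ± 2.31 and 45.9% ± 0.520 (SD, n = 3 each). NFKBIA took 41.8% ± 2.70 of the inhibitors in shControl and 56.4% ± 1.37 in shGXYLT2, and NFKBIB 47.5% ± 3.36 and 35.7% ± 1.99. Shares of a set make up a fixed whole, so those of RELA and NFKBIB also move with the levels of the other genes. Neither RELA nor NFKBIB passed the test. The sum of the 5 subunits was 42.0 to 44.6 CPM per kilobase in shControl and 39.3 to 41.9 in shGXYLT2. The summed level of NFKBIA, NFKBIB and NFKBIE was 0.783, 0.764 and 0.750 of that of the 5 subunits in shControl and 0.995, 0.920 and 0.921 in shGXYLT2. All 3 shGXYLT2 libraries were higher in this ratio, which is described without a test because it contains NFKBIA and NFKB1. The deposited length of NFKBIB is 1192 bases and its longest GENCODE transcript 2200, and with the latter its share in shControl was 32.99%, so the place of NFKBIB in the order depends on the length used. The first place in shControl does too: NFKBIA over RELA was 0.834, 0.850 and 0.809 there with the deposited length and 1.06, 1.08 and 1.02 with the longest GENCODE transcript. In shGXYLT2 that ratio was 1.2998, 1.23 and 1.15 with the former and 1.64, 1.56 and 1.46 with the latter, so NFKBIA stood above RELA with both.

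**Figure D4:**
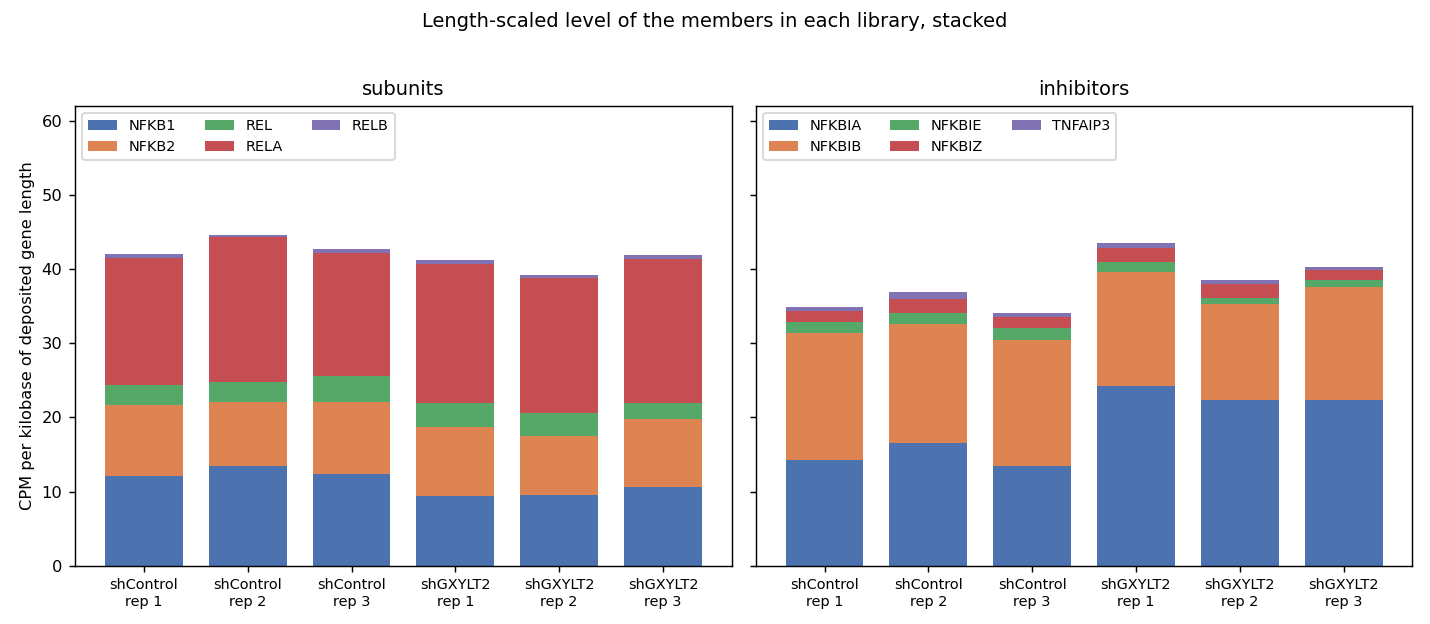
Stacked CPM per kilobase of deposited gene length (y axis, from 0) for the 5 subunits (left) and the 5 inhibitors (right) in each of the 6 libraries. The NFKBIA segment is 13.5 to 16.5 in shControl and 22.3 to 24.2 in shGXYLT2, while the NFKB1 segment is 12.1 to 13.4 and 9.46 to 10.7.

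The rest of the pathway was read from 7 lists of 160 genes, of which 102 were tested, 7 rose and 13 fell. These 20 calls are 19.6% of the tested genes of the lists, beside 12.2% of all tested genes, with a median log2 fold change of -0.03. The lists were chosen with earlier results of these data known, so the shares are set side by side as a description only. Among 7 other IkB-like and IkB-binding factors 0 passed the edgeR test or those of DESeq2 and limma-voom, and 1 had an unadjusted p below 0.05, BCL3, a nuclear IkB-like protein (log2 fold change -0.59, unadjusted p = 0.0383, edgeR adjusted p = 0.17). The most abundant of them were PPP4C, a phosphatase subunit, at 83.0 and 83.2 CPM, and NKIRAS2, which slows IkB degradation, at 47.8 and 50.7 CPM in shControl and shGXYLT2.

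Of 16 tested kinases of the IKK complex and upstream of it 0 rose and 2 fell (median log2 fold change 0.01), and 0 were higher at an unadjusted p below 0.05; DESeq2 and limma-voom gave the same counts. IKBKB, the IKK subunit that phosphorylates IkB-alpha, was at 20.8, 21.7 and 21.7 CPM in shControl and at 16.2, 15.2 and 16.9 CPM in shGXYLT2. The groups did not overlap (log2 fold change -0.41, edgeR adjusted p = 0.0040). MAP3K7, which encodes the IKK-activating kinase TAK1, fell from 50.4 to 41.5 CPM (adjusted p = 0.0199), a call lost when any 1 shControl library was left out (0.0635, 0.0576 and 0.132 without replicates 1, 2 and 3). Of 23 tested adaptors and ubiquitin ligases 0 rose and 1 fell, PELI1, a ligase of the interleukin-1 and Toll-like receptor branches, with means of 33.4 ± 2.35 and 24.8 ± 2.69 CPM (SD over 3 libraries; edgeR adjusted p = 0.0035). At an unadjusted p below 0.05, 0 of these genes were higher and 4 were lower, and DESeq2 and limma-voom also called 0 risen and 1 fallen. The median of that list was -0.06, and 2 of its genes fell without shGXYLT2 replicate 3. No share of all tested genes at an unadjusted p below 0.05 is given here, so the unadjusted counts are a description only.

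Of 15 tested deubiquitinases and other negative regulators 1 rose and 2 fell (median -0.06). CYLD, which removes the ubiquitin chains that carry the signal to IKK, rose, with a mean of 37.4 ± 0.333 CPM in the controls and 46.6 ± 3.67 in the knockdown (SD over 3 libraries; log2 fold change 0.32, edgeR adjusted p = 0.0079, and 0.0513 without shControl replicate 3). OTULIN, which cuts linear ubiquitin chains, fell from 45.9 to 36.8 CPM, and OTUD7B, which restrains the non-canonical pathway, fell from 58.3 to 49.0 CPM. The OTULIN call was lost without shControl replicate 2 or 3 or shGXYLT2 replicate 1, with adjusted p of 0.0520, 0.0768 and 0.0578, and the OTUD7B call without any 1 shControl library or shGXYLT2 replicate 1, with adjusted p of 0.0510 to 0.0823. Falls in this list dropped to 1 when shControl replicate 1 was left out, and to 0 for shControl replicate 2 or 3 or shGXYLT2 replicate 1.

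Of 13 tested receptors 1 rose and 4 fell (median -0.15), and the 4 were TNFRSF12A, TNFRSF19, TNFRSF10B and TNFRSF21. The list is mostly of the tumour necrosis factor (TNF) receptor superfamily, with 9 of the 13, of which 5 did not pass the test. TNFRSF21 was close to the threshold (edgeR adjusted p = 0.0494), and its call was lost under 11 of 14 alternatives, among them DESeq2, limma-voom, a replicate block and the removal of any 1 library other than shGXYLT2 replicate 3 (adjusted p of 0.0516 to 0.216). TNFRSF12A, the receptor of TWEAK, fell, with a mean of 30.6 ± 0.510 CPM in the controls and 22.5 ± 3.19 in the knockdown (SD over 3 libraries; edgeR adjusted p = 0.0041), TNFRSF19 from 18.4 to 13.8 CPM (adjusted p = 0.0059) and TNFRSF10B, a death receptor of TRAIL, from 90.1 to 74.5 CPM (adjusted p = 0.0072). TLR3, the receptor of double-stranded RNA, rose, with a mean of 2.78 ± 0.728 CPM in the controls and 5.11 ± 0.666 in the knockdown (SD over 3 libraries; edgeR adjusted p = 0.0041). Without shGXYLT2 replicate 1 the falls numbered 2, and the adjusted p of TNFRSF10B was 0.0578. TNFRSF1A, the main TNF receptor of most cells, averaged 48.9 and 44.6 CPM (adjusted p = 0.23), while TNFRSF1B, CD40 and TLR4 had 0 counts in all 6 libraries.

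The listed ligands, not all of which bind a receptor of the list above, mostly had little RNA. Of 18 ligands 15 were below 1 CPM in both groups and were not tested, and TNF, LTA, IL33, CD40LG and TNFSF11 had 0 counts, which allows a level of up to 0.0232 CPM (3 counts over the 6 libraries, counting error only). Of the 3 tested ligands EDA, the ligand of the ectodysplasin receptor, rose from 6.99 to 9.71 CPM (edgeR adjusted p = 0.010, and 0.0648 without shControl replicate 3), and TNFSF9 fell from 3.41 to 1.75 CPM (adjusted p = 0.0096). The TNFSF9 call was lost without shControl replicate 1 or 2 or shGXYLT2 replicate 1 (adjusted p of 0.0647, 0.0527 and 0.0524). The third, TNFSF13, averaged 6.96 and 9.19 CPM (adjusted p = 0.054). The listed receptors of EDA and TNFSF9 had little or no RNA. EDAR averaged 0.102 and 0.182 CPM and TNFRSF9 0.131 and 0.0968 CPM in shControl and shGXYLT2, and EDA2R had 0 counts. With shControl replicate 2 left out 2 ligands rose, and with shControl replicate 3 left out 0 rose.

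Genes known as NF-kB targets moved in both directions. Of 25 tested 4 rose and 3 fell, with a median log2 fold change of 0.0050. VCAM1, an adhesion molecule, rose, with a mean of 22.2 ± 0.905 CPM in the controls and 29.8 ± 1.98 in the knockdown (SD over 3 libraries; log2 fold change 0.43, edgeR adjusted p = 0.0018). CSF1, a macrophage growth factor, rose from 13.9 to 19.1 CPM (adjusted p = 0.0164, but 0.0528 to 0.0736 without any 1 shControl library or shGXYLT2 replicate 1). IRF2, a repressor of interferon genes, and NINJ1, a membrane protein, were the other rises (adjusted p of 0.0396 and 0.0471). The IRF2 call was lost without any 1 library other than shGXYLT2 replicate 2 (adjusted p of 0.0519 to 0.167). The NINJ1 call was lost under 9 of 14 alternatives, including removal of any 1 library other than shGXYLT2 replicate 2 (adjusted p of 0.0538 to 0.182). The rises numbered 1 without any 1 of the shControl libraries or without shGXYLT2 replicate 1, and 2 with DESeq2, limma-voom or a replicate block. They numbered 3 with library totals alone or without shGXYLT2 replicate 3, 5 with no filter on low counts, and 4 under the other alternatives. Falls ran from 2 to 4. SQSTM1, the autophagy receptor, fell by 1.22 on the log2 scale, with means of 127 ± 3.68 and 54.5 ± 6.20 CPM (SD over 3 libraries; edgeR adjusted p = 1.9e-09). The transcription factor KLF6 fell from 63.0 to 48.3 CPM, and BCL2L1, which encodes the survival protein BCL-XL, from 82.0 to 69.2 CPM (adjusted p of 0.0014 and 0.0227; 0.106, 0.116 and 0.0569 for BCL2L1 without shControl replicates 1, 2 and 3, 0.0746 without shGXYLT2 replicate 2 and 0.0529 with a replicate block).

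Several chemokine, cytokine and adhesion targets of inflammation were at or near 0 in both groups. CXCL8, CXCL1, CXCL3, CXCL6, CSF2, SELE and BCL2A1 had 0 counts in all 6 libraries, IL6 averaged 0.0391 and 0.152 CPM, and ICAM1 0.0684 and 0.170 CPM. In all, 27 of 50 targets were below 1 CPM in both groups. Other listed targets had higher RNA levels, such as SOD2, the mitochondrial superoxide dismutase, at 94.6 and 95.1 CPM (edgeR adjusted p = 0.96). The chemokine CCL2 was at 23.6 and 21.0 CPM (edgeR adjusted p = 0.28). Whether NF-kB drives either gene in these cells was not measured. BIRC3, an inhibitor of apoptosis with a kB match in a RefSeq window, averaged 0.641 and 0.758 CPM (adjusted p = 0.73). A kB match was present in 21 of the 41 targets with a RefSeq window (51.2%), beside 7.09% of all genes and 8.86% of tested genes with one. Genes can be known as targets because of such a site, so this share is no independent support.

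**Figure D5:**
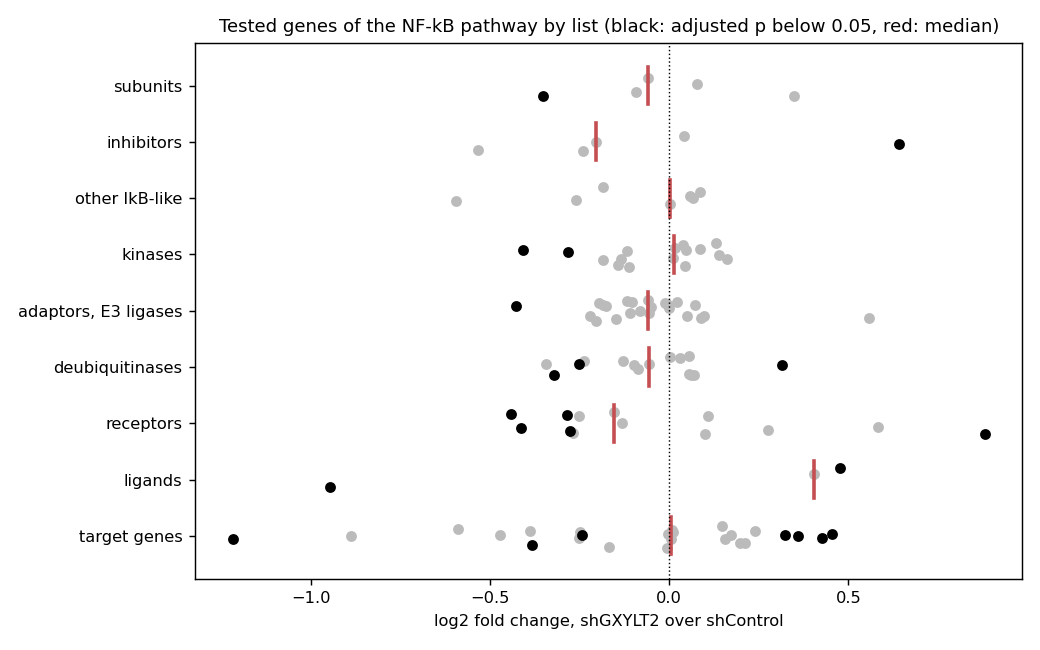
Log2 fold change, shGXYLT2 over shControl (x axis), of every tested gene of the subunits, the inhibitors and 7 pathway lists (y axis); black points passed the adjusted threshold and red bars are list medians. NFKBIA (0.64) is the highest point among the inhibitors and NFKB1 (-0.35) the lowest among the subunits, and called genes lie on both sides of 0 for deubiquitinases, receptors, ligands and targets.

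Genes that fell in these libraries more often held the 7-base word GACTCAT in the longest annotated 3′ UTR, a feature taken from earlier results of these data: it was present in 248 of 970 fallen genes (25.6%), 39 of 758 risen genes (5.1%) and 1038 of 12384 tested genes (8.38%). Of the members 1 held the word, NFKBIZ, which did not pass the test, and neither NFKB1 nor NFKBIA held it. Among called pathway genes it was present in 6 of 13 that fell (IKBKB, OTUD7B, SQSTM1, TNFRSF10B, TNFRSF19 and TNFSF9) and in 0 of 7 that rose. Because the word came from these same data, its share among fallen genes, here and in the pathway lists, is no independent support. Lengths of the 3′ UTRs were not taken into account. The part of the word in these falls was not tested.

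The genes whose level most resembled that of NFKBIA over the 6 libraries were CAT, which encodes catalase, ESD, an esterase, and SEPTIN6, a cytoskeletal GTPase, with Pearson correlations of log2 CPM of 0.995, 0.995 and 0.993. These are descriptions over 6 libraries that share group and depth, and 457 of 10045 genes compared reached 0.9. CAT rose from 38.2 to 49.1 CPM (edgeR adjusted p = 0.0018), and ESD averaged 116 and 125 CPM (adjusted p = 0.27). SEPTIN6 rose from 75.9 to 90.7 CPM (adjusted p = 0.0099), a call lost without shControl replicate 1 or 3 (0.0620 and 0.0832).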

How the data were processed

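The deposited values are estimated counts, 1 column per library and 1 row per gene, which the authors left unnormalized and of which 12.3% are not whole; a gene length in bases stands beside them. Tools named by the submitters' processing notes are fastp, HISAT2 and StringTie, and the build is GRCh38.p13. Their versions, how reads were counted and whether by strand, and the annotation are not given in the sources consulted. Per the labels' protocols, libraries were stranded, from messenger RNA. Titles gave groups and replicate numbers.

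Counts were rounded, filtered with filterByExpr, scaled by TMM and tested with the quasi-likelihood method of edgeR 4.0.16 (R 4.3.3), with group as the only term, all 6 libraries and Benjamini-Hochberg adjustment over 15693 genes at a threshold of 0.05. P-values are two-sided. SE and 95% intervals come from the quasi-likelihood F. The model was tested on simulated data with a single dispersion for all genes, which real genes do not share. It recovered 50% of genes changed 1.3-fold, 76% at 1.5-fold and 88% at 2-fold, with 4 false calls among 159. Small changes can therefore be missed. Alternatives were RLE, upper-quartile or no composition factors, no filter, a filter at 1 CPM in 3 libraries, DESeq2 1.42.0, limma-voom (limma 3.58.1), a replicate block and each library left out. Positions and 3′ UTRs (at least 100 bases) came from GENCODE 29 on GRCh38, start windows from RefSeq. Named genes are GXYLT2, the members, from each list at most 3 risen and 3 fallen genes of lowest adjusted p (where none passed, the 2 most abundant), and the 3 genes most correlated with the member of lowest adjusted p. Members and lists were chosen with earlier results of these data known. BCL3, TNFRSF1A, TNFRSF21, TNFSF13, NINJ1, MUC6, SOD2, CCL2, BIRC3 and the genes named at or near 0 were named outside the rule, after their values were seen. So were FN1 and COL1A1. Figures were made with matplotlib 3.10.9.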

Additional observations from a re-analysis of the deposited data

How the results depend on the processing

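The calls of NFKBIA (risen) and NFKB1 (fallen) were kept in direction and threshold under all 14 alternatives. Genes past the threshold numbered 1907, and with 1 library left out from 960 to 2347; leaving out shControl replicate 1, 2 or 3 gave 990, 1152 or 960. The number of risen members was 1 under all 14, and that of fallen members 1 to 2 with 1 library left out, the other being NFKBIE without shGXYLT2 replicate 1. Log2 fold changes turned sign with 1 library left out for REL (-0.17 to 0.10), NFKBIZ (-0.0493 to 0.192), TNFAIP3 (-0.45 to 0.0293), SOD2 (-0.0341 to 0.0311) and PPP4C (-0.0420 to 0.0367), and PPP4C also with limma-voom (-0.00033); none of these passed the test. The cause was not tested. With the longest GENCODE transcript in place of the deposited length, chosen after seeing the data, the ratio of the 3 IkB genes to the 5 subunits was 0.650 in shControl and 0.875 in shGXYLT2, against 0.766 and 0.946. A replicate block gave 1471 changed genes, with 1 risen and 1 fallen member (NFKBIA adjusted p = 6.5e-05, NFKB1 adjusted p = 0.0076), and ended the calls of IRF2, NINJ1, TNFRSF21 and BCL2L1 among the named genes. Same-numbered libraries did not deviate together (correlations of -0.01, -0.23 and -0.28 over 9520 genes), so the numbers in the titles are not taken to pair the samples. Deviations were taken from the mean of each group, so negative correlations for some pairs bring positive ones for others. The positive values of shControl replicate 2 with shGXYLT2 replicate 3 (0.27) and of shControl replicate 3 with shGXYLT2 replicate 2 (0.24) are therefore not read as pairing. The deposited columns carry numbers of their own that differ in part from those of the titles. Depth limits RELB (12 to 31 counts a library), NFKBIE and TNFAIP3.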
